A study of Homo sapiens with 6 samples.

Results

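Tight junction genes were examined in hTert-HME1, a telomerase-immortalised line derived from human breast epithelium. The set holds 7 genes, taken by symbol: the claudin genes CLDN1, CLDN4 and CLDN7, the genes OCLN and MARVELD2 of the MARVEL family, the junctional adhesion molecule gene F11R and the scaffold gene TJP1. All 7 were found among 57820 gene rows, and 6 of them passed the filter on low values that left 14763 genes to test. CLDN7 did not pass.

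All cells had been transfected with an siRNA, left to recover and then kept in a mammary epithelial growth medium that either held or lacked EGF, which signals through EGFR. Of the 6 libraries of polyadenylated RNA, 3 came from cells given the control siRNA and grown with EGF, at passage 4 (replicate P4) and at passage 6 (replicates A and B). The BRCA2 siRNA was used in the remaining 3: 1 library with EGF, taken at passage 4, and 2 lacking EGF, taken at passage 6 (also called A and B). BRCA2 encodes a protein of homologous recombination repair, and each target was addressed with a single siRNA, labelled control-1 and BRCA2-2. Every group shares the cell line, the transfection and the basal medium, so none of the libraries used comes from untransfected cells. Control siRNA without EGF, and BRCA2 siRNA with EGF at passage 6, were not analysed here. In the group without EGF, siRNA and medium therefore differ from the controls together and cannot be told apart. The labels give letters for biological replicates but no source of separate cultures, so the p-values reflect only how these libraries vary, and that spread may be technical.

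Tight junctions seal the space between neighbouring epithelial cells near their apical side. Claudins are 4-pass membrane proteins that form the paired strands and set which ions pass. Occludin and tricellulin, the products of OCLN and MARVELD2, are MARVEL proteins of the strands and of the corners where cells meet, and ZO-1, the product of TJP1, links the strands to actin. In mammary epithelium tight junctions are known chiefly from the luminal layer, whereas hTert-HME1 cells are commonly described as basal in their keratins.

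Values are on the deposited normalised log2 scale, so read depth cannot be stated and counting intervals are not given. Of the basal markers, all 7 (KRT5, KRT14, KRT17, TP63, ITGA6, ITGB4, TRIM29) were tested and their summed linear value ran from 301965.6 to 354566.0 in the libraries with EGF and from 496586.3 to 571877.4 without it. Haematopoietic markers summed to 12.0 to 13.5 in every library, with CD3E and HBB at 0. A value of exactly 0 was found in all libraries of a row or in none, and 25986 of the 57820 rows held it. Such a 0 was not read as a level, although other values lie below it, and counted as 0 in the linear sums. The BRCA2 value was 10.19 in the control at passage 4 and 10.88 in the EGF library labelled BRCA2 siRNA, so the label was not borne out by a lower BRCA2 level there. At passage 6 it was 11.25 and 11.24 in the controls and 11.15 and 10.89 without EGF, a difference of -0.23 (limma, adjusted p = 0.230).

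The genes with the widest range over the libraries were CLDN1, OCLN and MARVELD2, and the 250 bases before their start sites are shown because tight junction genes are known targets of transcription factors of the epithelial state. Sequences are RefSeq's on GRCh38.p14, and 6 of the 7 genes had a window there, F11R having none. Each window holds 250 bases before and 50 after an annotated start. On both strands 3 motifs were searched: CACCTG, the E-box bound by the SNAI and ZEB repressors, ACCGGT, the core bound by Grainyhead-like factors, and TGACTCA, the AP-1 site. None of the motifs contains another. The upstream part of CLDN1 is chr3:190322447-190322696 on the minus strand, that of OCLN chr5:69492297-69492546 on the plus strand (the first of its windows) and that of MARVELD2 chr5:69414866-69415115 on the plus strand. Capitals mark a motif match.
CLDN1: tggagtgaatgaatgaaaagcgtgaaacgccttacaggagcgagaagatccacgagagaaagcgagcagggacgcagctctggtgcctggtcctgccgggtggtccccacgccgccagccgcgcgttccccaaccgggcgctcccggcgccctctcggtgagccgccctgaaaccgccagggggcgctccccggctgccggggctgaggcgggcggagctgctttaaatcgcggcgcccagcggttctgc
OCLN: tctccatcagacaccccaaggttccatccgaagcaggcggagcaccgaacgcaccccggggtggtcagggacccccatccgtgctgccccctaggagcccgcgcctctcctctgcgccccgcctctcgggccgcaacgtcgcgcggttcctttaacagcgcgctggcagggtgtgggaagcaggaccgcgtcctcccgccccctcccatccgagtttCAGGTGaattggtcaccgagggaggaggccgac
MARVELD2: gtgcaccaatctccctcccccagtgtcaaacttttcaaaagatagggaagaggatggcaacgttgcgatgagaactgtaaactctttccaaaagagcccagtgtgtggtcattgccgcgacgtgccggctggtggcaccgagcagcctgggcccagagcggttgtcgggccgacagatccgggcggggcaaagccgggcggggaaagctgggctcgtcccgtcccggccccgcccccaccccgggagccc
MARVELD2 around the start: gggagcccgatACCGGTttcagagtcct

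None of the 3 motifs was found in the CLDN1 window. OCLN held CACCTG, read as CAGGTG on the plus strand, beginning 33 bases before its start, a motif present in 20.6% of 35116 promoter windows of the same length. A second OCLN window held 2 further matches to that motif. MARVELD2 held ACCGGT from base 4 after its start, in the stretch chr5:69415108-69415135, and 1.83% of all windows hold that motif. CLDN4 held TGACTCA, found in 4.95% of windows, beginning 161 bases before its start. TJP1 held CACCTG in 1 of its 4 windows, beginning 88 bases before that start. In CLDN7, 1 of 2 windows held 5 matches to CACCTG. A match describes letters only, and binding was not measured.

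Expression of the 7 genes ran over a wide scale, from TJP1 near the top to CLDN7 near the bottom. Per kilobase of exon, with lengths from GENCODE v29, the control mean on the log2 scale was 9.47 for TJP1 and 8.60 for F11R. CLDN1 followed at 7.41, MARVELD2 at 6.00 and OCLN at 3.00. CLDN4 lay at 1.48 and CLDN7 at 0.08. The control values of neighbours in this order were separated by more than their SDs. Without EGF the per-kilobase level of CLDN1 was 9.40 and that of F11R 9.22, so the order of these neighbours was exchanged in the means, by less than the spread of CLDN1.

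**Figure D1:**
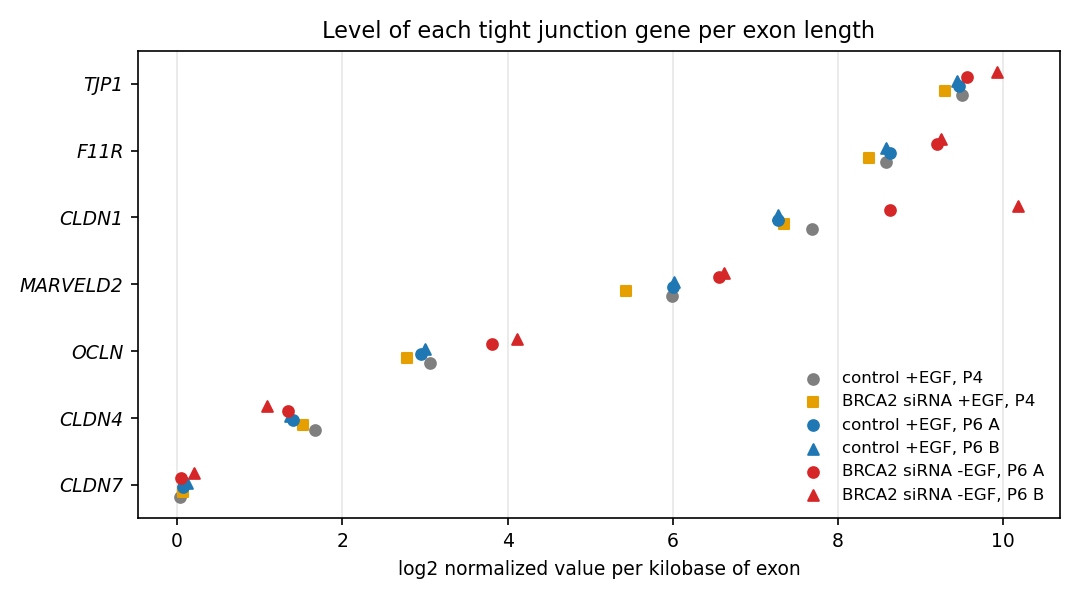
Levels of the 7 genes per kilobase of exon on a log2 axis, each point a library, marked by siRNA, medium and passage. TJP1, F11R and CLDN1 stand at the top, and CLDN4 and CLDN7 at the bottom, in every library.

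CLDN1, the major barrier claudin of skin and of many epithelia, was the member with the largest difference. It was 9.55 in the control at passage 4, 9.14 and 9.15 in passage 6 controls A and B, and 9.22 under BRCA2 siRNA with EGF, as labelled. Without EGF it was 10.50 in replicate A and 12.05 in replicate B. Both libraries without EGF lay above every library with EGF, and they differed from each other by 1.55. The mean was 9.28 ± 0.24 (SD, n = 3) in the controls and 11.27 ± 1.10 (SD, n = 2) without EGF. Within passage 6 the difference was 2.13 ± 0.51 (SE) with a 95% interval of 0.79 to 3.46, a 4.37-fold higher level, and it did not pass the threshold (limma, adjusted p = 0.0741). It was 1.35 for replicate A alone and 2.90 for replicate B alone. Of all genes tested, 0.224% had a difference at or above that of CLDN1.

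OCLN encodes occludin, a MARVEL protein that runs along the strands. Its values with EGF were 5.81 in the passage 4 control, 5.71 and 5.76 in controls A and B, and 5.54 in the library labelled BRCA2 siRNA. Without EGF it was 6.57 and 6.87. The lowest value without EGF lay above the highest with EGF. OCLN rose within passage 6 by 0.99 ± 0.14 (SE), with a 95% interval of 0.62 to 1.36, a 1.98-fold change (limma, adjusted p = 0.0323), and 1.9% of genes tested had a difference at or above it. Reads of OCLN may be split with OCLNP1, a near-identical copy, which makes its level uncertain. OCLNP1 itself stood at 3.35 to 3.46 in the 4 libraries with EGF and at 3.73 and 3.98 without it, a difference within passage 6 of 0.42 (limma, adjusted p = 0.117).

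MARVELD2 encodes tricellulin, which seals the corners where epithelial cells meet. It was 8.42 in the passage 4 control and 8.42 and 8.44 in controls A and B. The 3 controls varied little (SD 0.01). The EGF library labelled BRCA2 siRNA was lowest, at 7.85, and the libraries without EGF were highest, at 8.99 and 9.05. MARVELD2 rose within passage 6 by 0.59 ± 0.08 (SE), with a 95% interval of 0.37 to 0.80, a 1.5-fold change (limma, adjusted p = 0.0286), and 5.59% of genes tested had a difference at or above it.

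F11R encodes JAM-A, an immunoglobulin-like adhesion protein that recruits polarity proteins to the forming junction. It was 10.92 in the passage 4 control, 10.97 and 10.92 in controls A and B, and 10.71 where BRCA2 siRNA with EGF is the label. Without EGF it was 11.54 and 11.58. The libraries without EGF were above all others and close together. F11R rose within passage 6 by 0.62 ± 0.07 (SE), with a 95% interval of 0.43 to 0.80, a 1.53-fold change (limma, adjusted p = 0.0209), with 4.98% of genes at or above it. A read-through transcript row overlaps F11R, so its reads may be shared.

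TJP1 encodes ZO-1, the scaffold that holds claudins and occludin at the membrane, and was the most abundant of the 7. It was 13.00 in the passage 4 control, 12.95 and 12.93 in controls A and B, 12.78 in the EGF library labelled BRCA2 siRNA, and 13.06 and 13.42 without EGF. The groups did not overlap, but replicate A without EGF lay only slightly above the passage 4 control. The difference within passage 6 was 0.30 with a 95% interval of -0.06 to 0.65 and did not pass the threshold (limma, adjusted p = 0.212), and 16.5% of genes had a difference at or above it.

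CLDN4 encodes a claudin of simple epithelia that is abundant in luminal mammary cells. It was low in these cells, at 3.90 in the passage 4 control, 3.63 and 3.60 in controls A and B, and 3.75 in the EGF library labelled BRCA2 siRNA. Without EGF it was 3.58 and 3.32, the lowest values of the 6, with replicate A only slightly below control B. Its difference within passage 6 was -0.17 with a 95% interval of -0.52 to 0.19 (limma, adjusted p = 0.430), and 29.8% of genes had a difference at or below it. CLDN7, a claudin of simple and glandular epithelia, was near the floor at 1.35 to 1.44 in the libraries with EGF and 1.37 and 1.52 without it, and these overlap. No test was made of CLDN7, whose gene also overlaps ELP5.

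**Figure D2:**
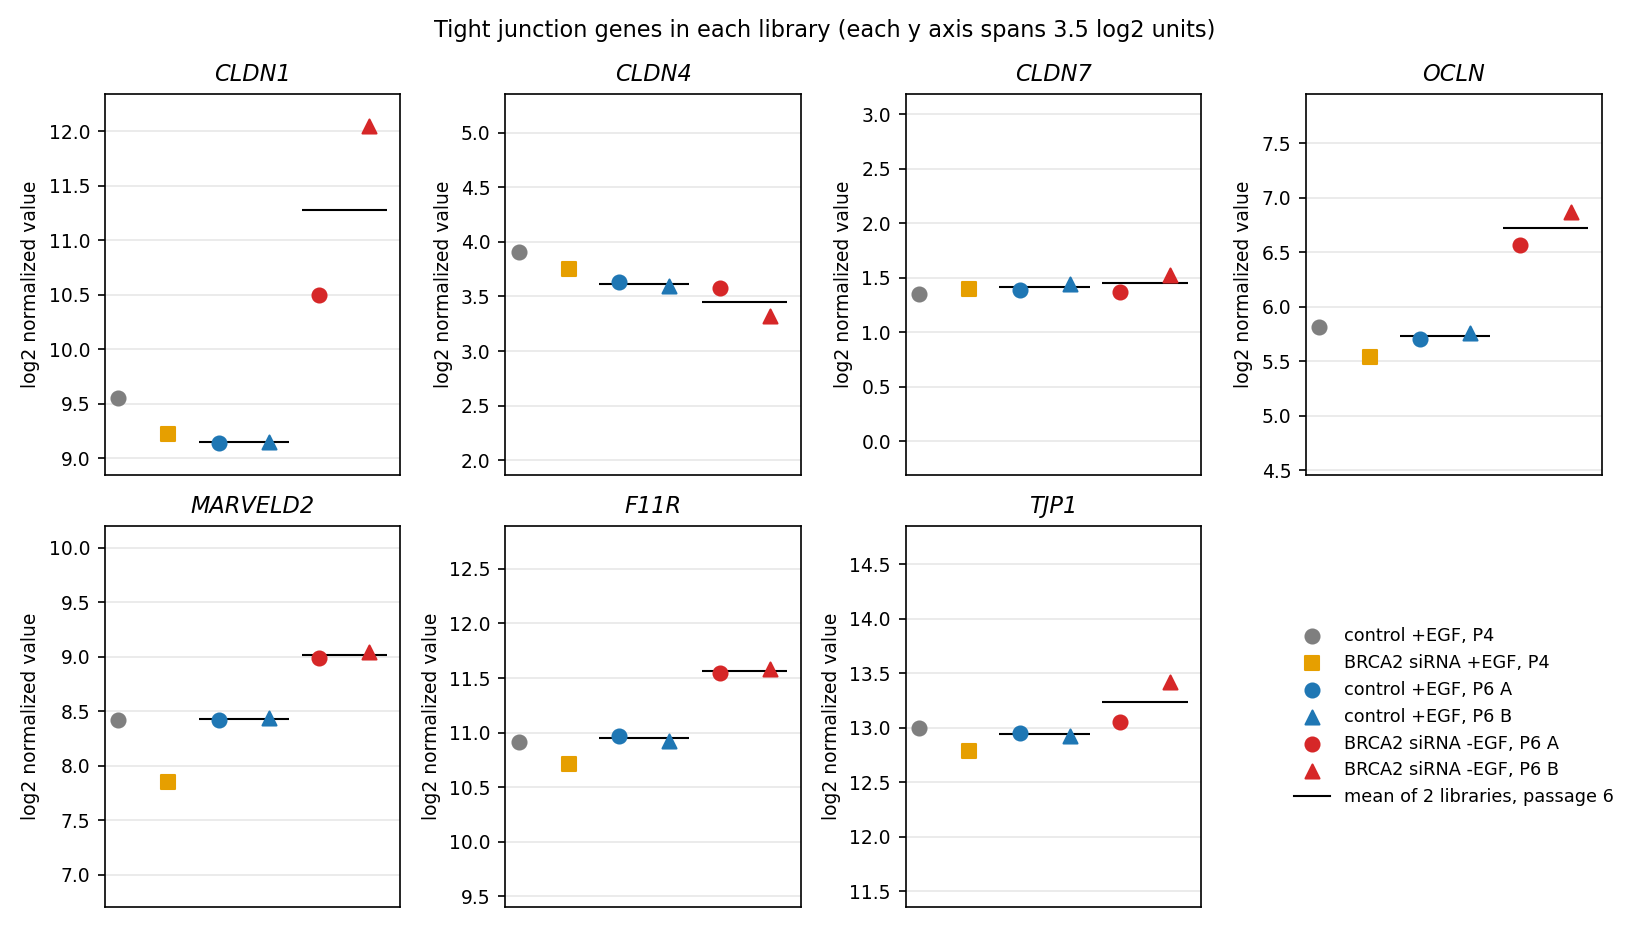
Deposited log2 value (vertical axis) of each of the 7 genes in each library, with 1 panel per gene and the libraries marked by siRNA, medium and passage. CLDN1 reached 10.50 and 12.05 without EGF against 9.14 to 9.55 with it, and CLDN4 was lowest without EGF.

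Set beside all genes, 3 of the 6 tested members passed the threshold within passage 6, all higher, where the background share was 6.44% of genes, 3.56% higher and 2.88% lower (limma, adjusted p below 0.05). They were OCLN, MARVELD2 and F11R, with CLDN1 above 0 and short of the threshold. The median difference of the 6 tested members was 0.60, beside -0.02 over all genes tested. In 5 of the 6, namely CLDN1, OCLN, MARVELD2, F11R and TJP1, both libraries without EGF lay above all 4 libraries with EGF, a pattern found in 16.6% of genes tested. CLDN4 lay below all 4, as did 22.2% of genes tested. The calls for OCLN, MARVELD2 and F11R rest on controls A and B being counted as separate replicates. With A and B averaged the adjusted p was 0.208, 0.377 and 0.318 in limma, without control A it was 0.222, 0.374 and 0.286, and without control B it was 0.195, 0.352 and 0.328. Leaving out either library without EGF leaves 1 in that group, with the spread then taken from controls A and B alone. The calls added there, of CLDN1 and TJP1, rest on that spread. Without replicate A the differences were 2.90 for CLDN1 and 0.48 for TJP1, and without replicate B 1.35 and 0.11.

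When the passage 4 control was pooled with controls A and B, 0 of the 6 tested members passed the threshold in limma. Of all genes 0.989% passed, 0.853% higher and 0.135% lower. The differences were of like size, with the passage 4 control taken as labelled. CLDN1 differed by 1.99 with a 95% interval of 0.89 to 3.10 (limma, adjusted p = 0.132). OCLN differed by 0.96 with an interval of 0.57 to 1.35 (limma, adjusted p = 0.0665), F11R by 0.63 (limma, adjusted p = 0.0709) and MARVELD2 by 0.59 (limma, adjusted p = 0.101). TJP1 differed by 0.28 (limma, adjusted p = 0.388) and CLDN4 by -0.27 (limma, adjusted p = 0.445). A fit of 4 groups by siRNA, medium and passage, which is the comparison within passage 6, or leaving out the passage 4 control, gave 3 calls.

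**Figure D3:**
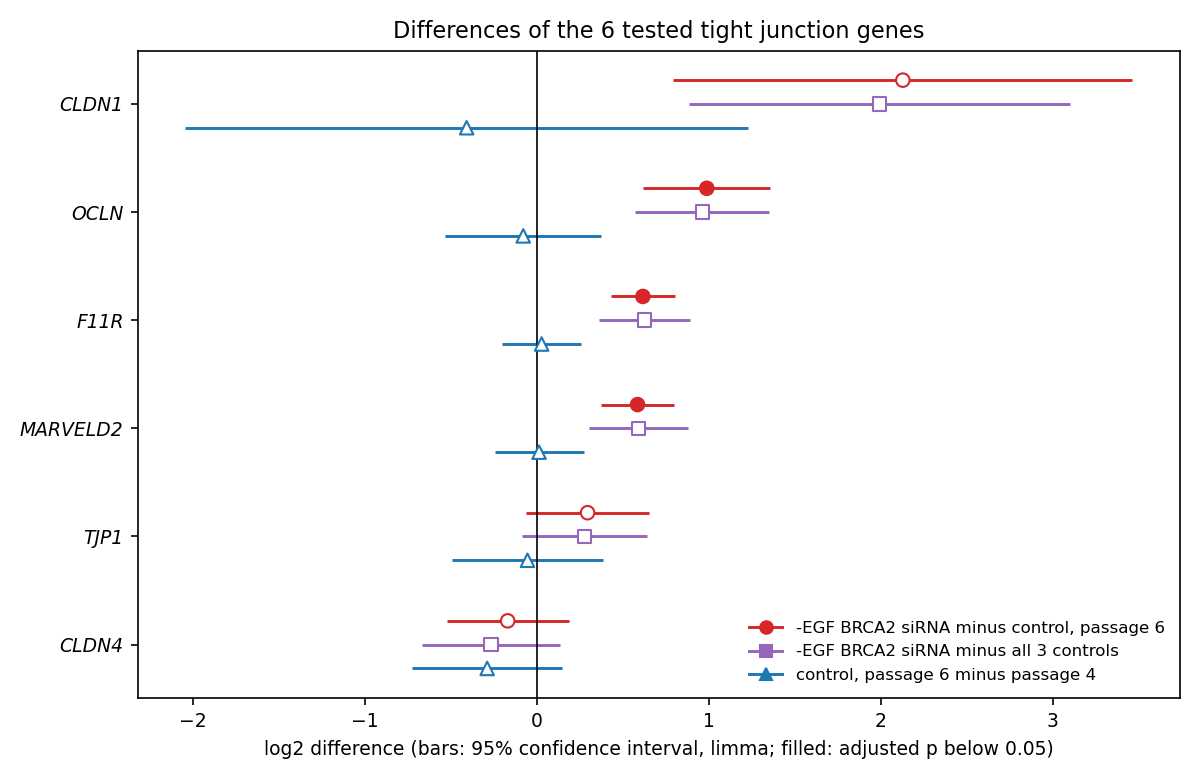
Log2 difference of the 6 tested genes (horizontal axis) with 95% confidence intervals from limma, in 3 comparisons, filled where the adjusted p is below 0.05. Intervals within passage 6 lie above 0 for CLDN1, OCLN, F11R and MARVELD2 and reach 0 for TJP1 and CLDN4, and those between the passages of the controls reach 0 for all 6.

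Passage was examined in the libraries labelled control siRNA alone. In the passage 4 control BRCA2 was 10.19, the lowest value of the 6 libraries. Over all genes tested, differences from control A had an SD of 0.485 for that library. For the passage 4 library labelled BRCA2 siRNA this SD was 0.290. The contrast of passages therefore holds for the labels as given. Between passage 6 and passage 4, 0 of the 6 members passed the threshold in limma, while 20.1% of all genes did, 7.71% higher and 12.4% lower. CLDN1 differed by -0.41, but with a wide 95% interval of -2.04 to 1.23 (limma, adjusted p = 0.650). OCLN differed by -0.08 with an interval of -0.53 to 0.37, MARVELD2 by 0.01 with -0.25 to 0.27, and F11R by 0.03 with -0.20 to 0.26. For OCLN, MARVELD2 and F11R these intervals lie below the differences found without EGF within passage 6. CLDN4 differed by -0.29 with an interval of -0.72 to 0.15 and TJP1 by -0.05 with -0.49 to 0.38. When either library lacking EGF was left out, the CLDN1 difference stayed at -0.41, with the spread taken from controls A and B alone. The call of CLDN1 as lower there rests on that spread.

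The siRNA could be compared with medium and passage held only at passage 4, with 1 library each, and no test of this pair was made. All 6 tested members were lower in the library labelled BRCA2 siRNA, in which 54.3% of genes tested were lower, and 0 reached an absolute difference of 1, as 2.21% of genes did. MARVELD2 differed most, by -0.57. CLDN1 differed by -0.33, OCLN by -0.27, F11R and TJP1 each by -0.21, CLDN4 by -0.15 and the untested CLDN7 by 0.04. Direction here holds for the labels as given, since BRCA2 was not lower in that library.

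Medium without EGF was compared with medium with EGF under BRCA2 siRNA, where passage differs too and cannot be told apart. In limma 0 of the 6 members passed the threshold, and 0.203% of genes did, 0.176% higher and 0.0271% lower. This comparison uses the same libraries without EGF as those above, so its values are no separate evidence. CLDN1 differed by 2.05 with a 95% interval of 0.57 to 3.53, OCLN by 1.18 with 0.66 to 1.70, MARVELD2 by 1.17 with 0.78 to 1.55 and F11R by 0.85 with 0.50 to 1.20. The adjusted p of these 4 was 0.227, 0.108, 0.0664 and 0.0897 in limma. In the fit of 4 groups by siRNA, medium and passage, which leaves these differences as they are and changes only the spread, OCLN, MARVELD2 and F11R passed, at limma adjusted p of 0.0258, 0.0141 and 0.0169. Of the 14763 genes tested, 2406 passed in that fit. With the passage difference of the controls taken off, which takes the effect of passage to be equal for both siRNAs, the differences were 1.26, 1.15 and 0.82 and the limma adjusted p 0.0614, 0.0357 and 0.0469, so that MARVELD2 and F11R passed, 2 of 6. Of all genes tested, 569 passed under that setting, which takes the passage 4 labels as given.

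The wider junction was examined in 57 other tight junction genes, of which 32 passed the filter on low values. Within passage 6, 2 of these rose and 1 fell in limma, beside the 6.44% of all genes tested. Of the 32, 22 were above 0, beside 47.3% of all genes, with a median difference of 0.10. In the comparison pooled over passages 0 passed, 18 of 32 were above 0, beside 46.1% of all genes, and the median was 0.04. With controls A and B averaged, with either of them left out, or with no filter on low values, 0 of the 3 calls were made. Between the passages of the controls, 1 was higher and 6 were lower, beside 20.1% of all genes.

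LSR, which encodes the angulin that brings tricellulin to cell corners, was the transmembrane partner that rose. It was 7.40 and 7.0 in the passage 4 control and the library labelled BRCA2 siRNA, 7.72 and 7.77 in controls A and B, and 8.62 and 8.78 without EGF. Its difference within passage 6 was 0.96 (limma, adjusted p = 0.0180). CXADR, the gene of a virus receptor that also sits at tight junctions, differed by 0.44 (limma, adjusted p = 0.220). Of the claudins outside the 7, 4 of 18 were tested. CLDN12 fell by 0.46 on the log2 scale (limma, adjusted p = 0.0453), from 11.89 and 11.85 to 11.35 and 11.47. That call was also lost without a mean-variance trend (limma, adjusted p = 0.0639), with quantile normalization (0.0729) and with a block on the replicate letter (0.0637). CLDN15 differed by 0.09. CLDN17, CLDN22 and CLDN23 were listed at 0 in every library, which is not read as a level.

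Among the cytoplasmic partners, PATJ, a scaffold of the Crumbs polarity complex, rose by 0.64 within passage 6 (limma, adjusted p = 0.0238), from 9.91 and 9.95 in controls A and B to 10.51 and 10.63. At passage 4 it was 10.47 in the control, so the value of replicate A without EGF was close to that of the earlier control. CGN, the gene of cingulin, differed by 0.64 (limma, adjusted p = 0.0559). The polarity genes PARD6G and DLG1 differed by 0.60 and 0.39 (limma, adjusted p = 0.115 and 0.0638). ARHGEF11, a guanine nucleotide exchange factor, and YBX3, a junction-associated nuclear factor, differed by -0.11 and -0.13.

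**Figure D4:**
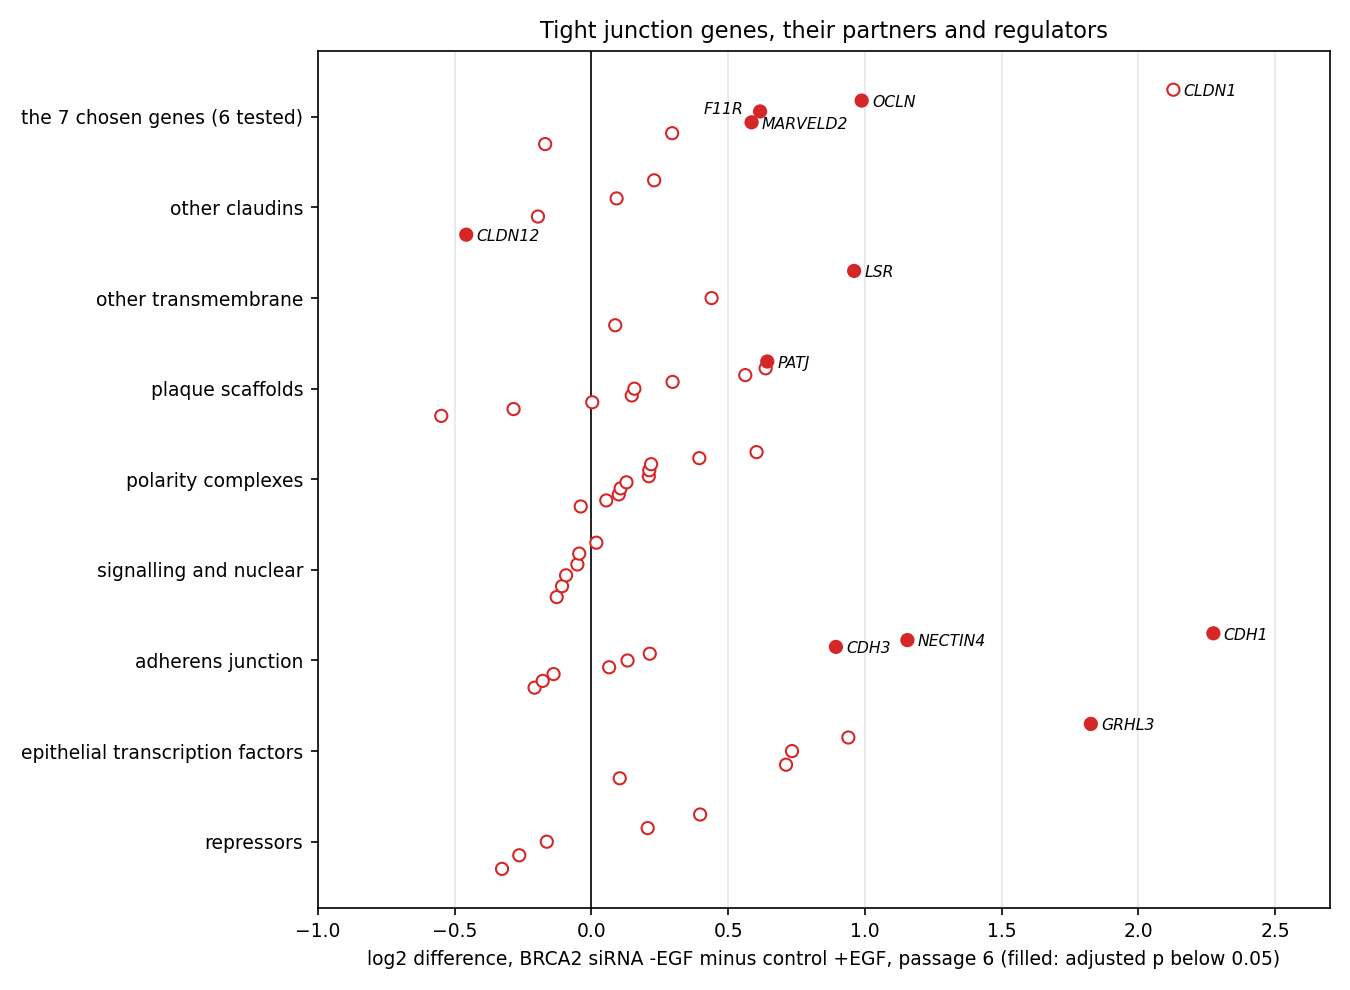
Log2 difference within passage 6 (horizontal axis) for each tested gene of the tight junction, its partners, the adherens junction and transcription factors, 1 point per gene, filled where the limma adjusted p is below 0.05. OCLN, MARVELD2, F11R, LSR, PATJ, CDH1, CDH3, NECTIN4 and GRHL3 are filled above 0 and CLDN12 below 0.

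Adherens junctions lie just below tight junctions and use cadherins and nectins. Within passage 6, 3 of 9 tested adherens junction genes rose and 0 fell, beside 3.56% and 2.88% of all genes tested. CDH1, the gene of E-cadherin, was 7.14 to 7.60 in the 4 libraries with EGF and 9.78 and 9.79 without it, a difference of 2.27 (limma, adjusted p = 0.00753). It was also past the threshold in the comparison pooled over passages, at 2.25 (limma, adjusted p = 0.00511), a call lost when replicate A or B lacking EGF was left out (limma, adjusted p = 0.173 and 0.197) or with a block on the replicate letter (0.0541). NECTIN4 rose by 1.16 (limma, adjusted p = 0.0209) and CDH3, the gene of P-cadherin, by 0.89 (limma, adjusted p = 0.0234). NECTIN4 was 8.29 in the passage 4 control, above its 7.0 and 7.27 without EGF. Pooled over passages NECTIN4 did not pass (limma, adjusted p = 0.817). With no filter on low values, NECTIN4 and CDH3 lost their calls within passage 6 (limma, adjusted p = 0.0818 and 0.0910). CDH1 kept its call there (limma, adjusted p = 0.0439). NECTIN4 and CDH3 also lost theirs with control A or control B left out. With controls A and B averaged, CDH1 kept its call (limma, adjusted p = 0.0338), and NECTIN4 and CDH3 did not (limma, adjusted p = 0.134 and 0.175).

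Of the 10 epithelial transcription factors, 5 were tested, all 5 were above 0 and 1 passed. Within passage 6, 47.3% of all genes tested were above 0 and 3.56% were called higher. GRHL3, a Grainyhead-like factor of barrier epithelia, was 5.69 to 6.11 with EGF and 7.51 and 8.02 without it. It rose by 1.83 within passage 6 (limma, adjusted p = 0.0229) and by 1.77 over passages (limma, adjusted p = 0.0325), with a limma adjusted p of 0.0803 within passage 6 when controls A and B were averaged. Leaving out control A or control B gave 0.0947 and 0.0633 within passage 6, and leaving out replicate A or B lacking EGF gave 0.189 and 0.372 over passages, all adjusted p in limma. Over passages the call was also lost with A and B averaged (limma, adjusted p = 0.0755), without control A (0.0928) or control B (0.0741), with no filter (0.0578) and with a block on the replicate letter (0.115). With no filter the GRHL3 call within passage 6 was lost too (limma, adjusted p = 0.0976). TP63, which encodes the master factor of basal epithelium, differed by 0.94 (limma, adjusted p = 0.0672). Of the 6 repressors of claudin and occludin genes 5 were tested, 2 were above 0 and 0 passed in limma. ZEB1 differed by -0.33 (limma, adjusted p = 0.137) and ZEB2 by 0.40 (limma, adjusted p = 0.140).

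Markers of other cell types differed in direction from list to list. Within passage 6, 47.3% of all genes tested were above 0, 3.56% were called higher and 2.88% lower. Of the fibroblast markers, 8 of 10 were tested, none was at 0, all 8 differences within passage 6 were above 0 and 6 rose, and their summed linear value was 2229.3 to 2589.7 in the controls, 4354.3 in the EGF library labelled BRCA2 siRNA and 6918.5 to 7099.5 without EGF. Luminal markers summed to 3807.9 to 4684.5 with EGF and 3114.3 to 3348.6 without it, with 1 of 6 tested higher and 1 lower within passage 6. Endothelial markers summed to 288.5 to 1105.5 with EGF and to 595.7 to 784.2 without it, with CDH5 at 0. Basal markers, 4 of 7 of which rose within passage 6, are given above. The part of these in the differences of CLDN1, OCLN, MARVELD2 and F11R was not tested. In these bulk samples, more cells expressing a gene and more RNA per cell cannot be told apart.

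Genes with the pattern most like a member were sought for CLDN1, OCLN and MARVELD2, the members whose 6 values spanned at least 1, as the root mean square distance between mean-centred log2 values over 6 libraries. For CLDN1 the nearest were EDN1 at 0.207, CYP1A1 at 0.268 and RETREG1 at 0.310. EDN1, the endothelin gene, was 9.32 and 10.37 without EGF against 7.60 to 8.07 with it, so replicate B was the higher, as for CLDN1. For OCLN the nearest were DUOX1 at 0.0698, FADS3 at 0.0761 and HSPG2 at 0.0792. For MARVELD2 they were PLXNB1 at 0.0584, ADGRG1 at 0.0660 and CYB5R1 at 0.0734. PLXNB1, a semaphorin receptor gene, was 10.89 in the EGF library labelled BRCA2 siRNA, 11.30 to 11.43 in the controls and 11.98 and 11.92 without EGF. These are descriptions over 6 libraries in few groups.

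**Figure D5:**
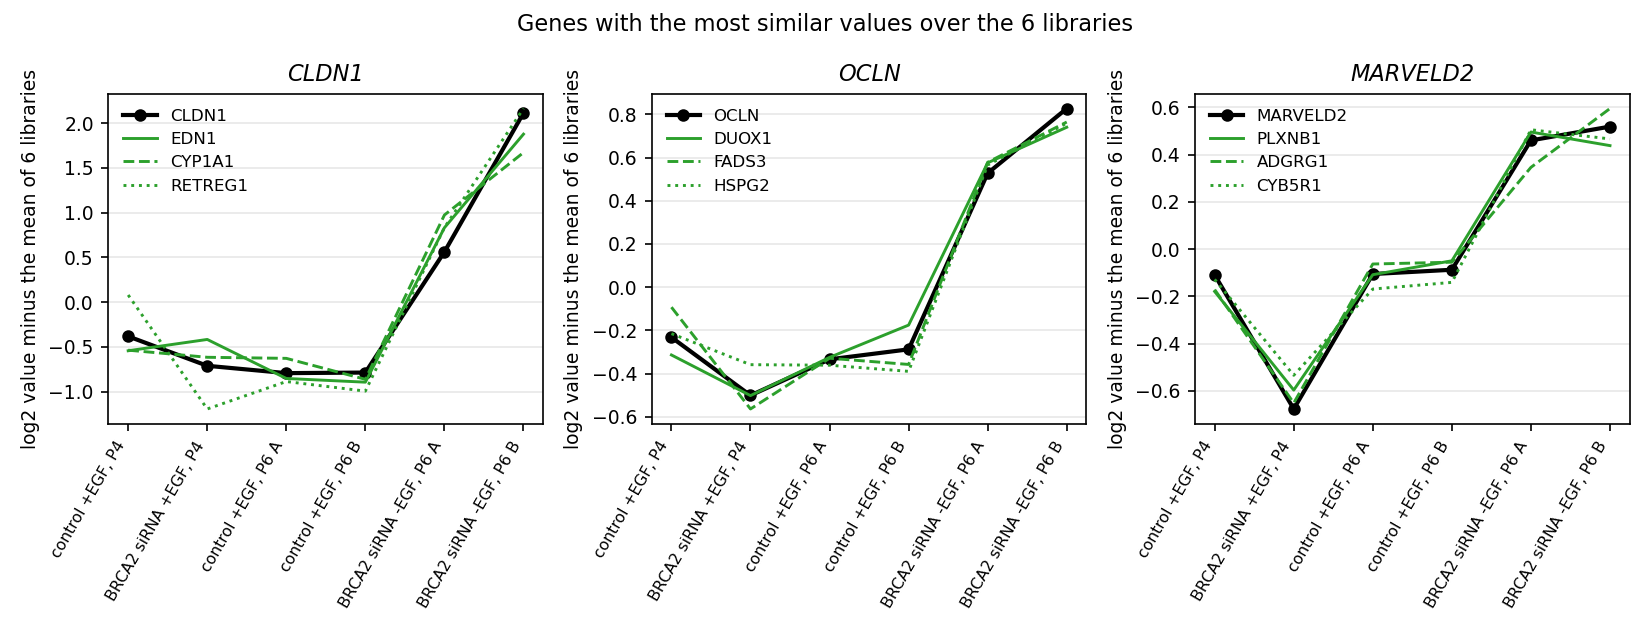
Mean-centred log2 values (vertical axis) of CLDN1, OCLN and MARVELD2 and of the 3 genes nearest to each, over the 6 libraries. In each panel the libraries without EGF are highest, and for CLDN1 and EDN1 replicate B lies above replicate A.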

How the data were processed

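Polyadenylated RNA of hTert-HME1 cells was sequenced from ScriptSeq libraries, per the labels' protocols. The submitters' processing notes name TopHat2 2.0.11, DESeq2 and hg19 without giving their roles. Which counter, annotation and log transformation was used is not given in the sources used here. What the authors deposited is 1 table with log2 values from -1.98 to 19.93. If the transformation shrinks low values, differences of low genes such as CLDN4 and CLDN7 would be understated. Depth per library is unknown, so count models were not used.

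Groups came from the labels. Tests took genes whose mean linear value (2 to the power of the log2 value) was at least 10, and used limma 3.58.1 in R 4.3.3 (mean-variance trend, robust prior, two-sided, Benjamini-Hochberg adjusted p below 0.05), in a fit of 3 groups and, for passage 6 and for passage, a fit of 4 groups by siRNA, medium and passage. These leave 3 and 2 residual degrees of freedom, and single-library groups borrow the spread of the others. The procedure was tested on simulated data. Of simulated differences of 1 on the log2 scale, 61% were recovered pooled over passages and 31% within passage 6. Between control passages 14% were recovered, and for medium under BRCA2 siRNA 21%. For differences of 2 the shares were 100%, 99%, 94% and 90%, in the same order. Ensembl identifiers were matched to symbols for 92.1% of tested genes, and gene coordinates are left out since the annotation used here is not of hg19. Promoter sequences are RefSeq's.

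Members and lists were chosen with earlier results of these data known. Named from the lists are genes past the threshold over passages and, per subgroup, the 2 largest differences within passage 6 at a mean of at least 20. OCLNP1, CDH3, CLDN17, CLDN22, CLDN23 and the genes of the closing observations were named after their values were seen. The nearest genes were sought at a mean of at least 50. Alternatives were other filters, normalizations and priors, a replicate block, averaging controls A and B, and leaving out each library.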

Additional observations from a re-analysis of the deposited data

How the results depend on the processing

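Over 344 member values under alternatives, 309 kept direction and side of the threshold, 21 newly passed it, 12 no longer passed it and 2 changed sign. Both sign changes were of small differences between control passages that passed no threshold, MARVELD2 at -0.0061 with the replicate block by letter and TJP1 at 0.0432 with the letters crossed. Within passage 6, 950 genes passed, but 76 without a filter on low values and 46 with controls A and B averaged, while members went from 3 to 0 under both. Without a filter the adjusted p in limma was 0.0976 for OCLN, 0.0785 for MARVELD2 and 0.0696 for F11R. Leaving out libraries gave 42 to 8964 genes and 0 to 5 members, the 42 and 45 without control A and control B, and 8964 and 6975 without replicates A and B lacking EGF, when the spread comes from the closely alike controls A and B alone. The SD of the differences between A and B was 0.119 in controls and 0.308 without EGF.

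Pooled over passages, 146 genes passed, beside 87 without a filter, 94 at a mean of at least 50, 37 with A and B averaged and 950 with 4 groups by siRNA, medium and passage (members 0 against 3), and 0 to 951 genes and 0 to 3 members with a library left out. The 951 and the 3 came without the passage 4 control, 29 and 38 without control A and control B, and 0 without replicate A (1853 at an unadjusted p below 0.05 in limma) or B (1057) lacking EGF. Between control passages 2963 passed, beside 0 without a filter (7341 at an unadjusted p below 0.05 in limma) and 0 with A and B averaged (2770), and 0 to 9849 with a library left out, with 0 to 1 members. The 0 came without control A (2959) or control B (2674). For medium under BRCA2 siRNA 30 passed, beside 18 without a filter, 13 at the higher mean, 11 with A and B averaged and 2406 with 4 groups, which leaves passage in the difference, and 0 to 2404 with a library left out. The 0 came without replicate A (1857 at an unadjusted p below 0.05 in limma) or B (1239) lacking EGF, and 2404 without the passage 4 control. Members there went from 0 to 3 with 4 groups, and from 0 to 3 with a library left out. With the passage difference of the controls taken off, an alternative chosen after seeing the data, 569 genes and 2 members passed.

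Replicate letters did not establish pairs. The A to B differences of controls and of the group without EGF correlated at -0.172. A replicate block by letter gave 1232 genes and 3 members within passage 6, 6 genes pooled over passages and 0 for medium under BRCA2 siRNA (1008 at an unadjusted p below 0.05 in limma). With the letters crossed, chosen after seeing the data, 1795 genes and 4 members passed within passage 6, CLDN1 being added, and 10 genes for medium under BRCA2 siRNA. The causes were not tested. Unknown depth limits CLDN4 and CLDN7, which are low.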

Other observations

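Several genes that accompany tight junctions in luminal epithelium were near the low end of the scale in all 6 libraries. These were named after their values were seen and do not stand for the luminal markers as a list. Of the 9 luminal markers 6 passed the filter on low values, and the list summed to a linear value of 3114.3 to 4684.5. CLDN3, a claudin of glandular epithelia, was -1.98 to -1.95, and GRHL2, a Grainyhead-like factor of simple epithelia, was -1.51 to -1.45. EPCAM, the gene of an epithelial adhesion protein that partners CLDN7, was -0.18 to 0.09, and KRT19, a luminal keratin gene, was 0.91 to 1.12. SNAI2, the gene of a repressor of the epithelial state, was 13.18 in the control and 12.93 under BRCA2 siRNA at passage 4, 12.41 and 12.36 in controls A and B, and 12.16 and 12.28 without EGF. VIM, the vimentin gene, was 14.97 to 15.42 with EGF and 14.46 and 14.33 without it, and it fell within passage 6 by 0.59 on the log2 scale (limma, adjusted p = 0.0273).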
